A study of Homo sapiens with 12 samples.

Results

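The genes described here are 38 components and transcriptional targets of the Hippo pathway, taken by name from a list, out of 26334 genes in the expression table. The list was chosen with earlier results of these data known, so its shares of called genes are not those of a blind choice. The 38 genes comprise the effectors YAP1 and WWTR1 (TAZ), 4 TEAD transcription factors, 2 vestigial-like cofactors, 7 genes of the core kinase cassette, 6 upstream regulators, 3 angiomotins, 7 targets that encode secreted or surface proteins and 7 targets that encode intracellular proteins. Of the 38, 37 reached 1 FPKM (a fragment count scaled to transcript length and library size) in at least 3 of the 12 libraries and were tested. VGLL3, a vestigial-like cofactor, stayed between 0.06 and 0.17 FPKM in all 12 libraries and was not tested. The table uses the older symbols CTGF and CYR61 for CCN2 and CCN1.

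All libraries came from HK-2, an immortalised human proximal tubule cell line, carrying a PRCC-TFE3 construct that doxycycline (Dox) switches on. PRCC-TFE3 is a gene fusion of translocation renal cell carcinoma that joins PRCC to the transcription factor TFE3. Cells were kept for 48 h in 4 conditions with 3 biological replicates each: DMSO alone, Dox, 100 nM MSC2530818 (an inhibitor of CDK8 and CDK19, kinases of the Mediator complex), or Dox with 100 nM MSC2530818. Every group carried the uninduced or induced construct, and all cells were grown with puromycin and blasticidin S. Neither the Dox concentration nor whether the line is 1 clone is stated in the labels. No group received Dox without the construct, so an effect of Dox and an effect of the fusion cannot be told apart.

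In the Hippo pathway, the kinases MST1 and MST2 (STK4 and STK3) with SAV1 activate LATS1 and LATS2 with their MOB1 cofactors, which phosphorylate YAP and TAZ and keep them out of the nucleus. Unphosphorylated YAP and TAZ bind TEAD factors and switch on genes such as CTGF, CYR61 and ANKRD1, and several pathway genes, among them LATS2, NF2 and AMOTL2, are known targets that feed back on YAP. In the kidney tubule the pathway is known for its part in epithelial growth, injury repair and fibrosis. Much of its control is by phosphorylation and location of YAP and TAZ, which mRNA levels do not show.

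TFE3, whose reads include those of its part of the fusion, was at 32.7 to 38.9 FPKM with DMSO, 146 to 154 with Dox, 26.3 to 29.7 with inhibitor and 81.7 to 87.6 with both. Thus every library given Dox lay above every library without it, but the rise was smaller under inhibitor (interaction of Dox and inhibitor −0.47 on the log2 scale, limma adjusted p = 0.0229). The FPKM of a library summed to between 429208 and 473950, with replicate 1 highest in each group, and sequencing depth is unknown from these values. Of 14 proximal tubule markers 4 reached the expression threshold, while LRP2 did not exceed 0.01 FPKM and neither did the epithelial cadherin CDH1. The summed FPKM of 6 epithelial markers, 5 of which reached the threshold, was 560.4 to 651.7 with DMSO, 437.1 to 458.4 with Dox, 666.8 to 800.7 with inhibitor and 505.1 to 548.3 with both. The proximal tubule sum was 186.2 to 219.8 with DMSO, 175 to 190 with Dox, 254.2 to 263 with inhibitor and 215.7 to 229 with both. Of 7 fibroblast markers 2 reached the threshold (COL1A1 and LUM), and their sum was 6.17 to 6.79 with DMSO, 10.66 to 11.97 with Dox, 4.77 to 7.09 with inhibitor and 5.64 to 7.04 with both. Of 7 leukocyte markers 1 did (CD68), and their sum was 34.47 to 42.66, 53.25 to 58.75, 25.47 to 31.12 and 29.67 to 33.95 in the same order. LUM (1.45) and CD68 (0.53) were called higher with Dox and lower with inhibitor in induced cells (−1.15 and −0.83). The part of these markers in the results below was not tested. Endothelial markers summed to at most 0.32 FPKM, and in such bulk libraries fewer cells of a type and less RNA per cell cannot be told apart.

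The bases upstream of 3 targets are shown because each held at least 2 matches to a TEAD motif. A link between these matches and the changes below was not tested. Promoter sequences were found for 30 of the 38 genes in a RefSeq table (GRCh38.p14). The motif GGAATG, on either strand, was present in the 250 bases before the start in 5 of the 30 (16.7%), namely YAP1, PTPN14, CTGF, ANKRD1 and NUAK2, against 11.9% of 27305 promoters. CTGF held 3 matches, a number reached by 0.095% of all promoters. ANKRD1 and NUAK2 held 2 each, and 0.96% of all promoters had at least 2. Stretches are printed 5′ to 3′ along the gene, all from the minus strand, with each match in capitals (CATTCC is the motif on the opposite strand), and end before the first transcribed base. The second match of ANKRD1 and that of NUAK2 lie within annotated transcripts and are not printed. A match is a string of letters here, not evidence of binding. In GENCODE v29 (GRCh38) the genes lie at chr6:131948176-131951373 (CTGF), chr10:90912096-90921276 (ANKRD1) and chr1:205302059-205321791 (NUAK2).
CTGF, chr6:131951374-131951622: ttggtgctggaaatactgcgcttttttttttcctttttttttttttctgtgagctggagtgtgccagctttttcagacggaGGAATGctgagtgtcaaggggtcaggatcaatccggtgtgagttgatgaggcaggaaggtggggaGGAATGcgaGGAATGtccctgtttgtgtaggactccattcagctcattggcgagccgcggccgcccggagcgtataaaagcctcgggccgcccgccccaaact
ANKRD1, chr10:90921277-90921337: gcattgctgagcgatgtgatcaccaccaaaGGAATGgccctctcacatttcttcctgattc
NUAK2, chr1:205321792-205321995: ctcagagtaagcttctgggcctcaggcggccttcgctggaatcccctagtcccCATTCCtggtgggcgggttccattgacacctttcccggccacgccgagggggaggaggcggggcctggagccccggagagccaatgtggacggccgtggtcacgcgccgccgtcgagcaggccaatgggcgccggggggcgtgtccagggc

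The AP-1 motif TGANTCA, searched in the same way, was in 3 of the 30 promoters (MOB1B, F3 and ANKRD1), which is 10% against 6.6% of all. In ANKRD1 it lay between the 2 TEAD matches, which began 220 and 128 bases before the start. The E-box CACGTG was in 4 of the 30 (YAP1, VGLL4, STK4 and FJX1), 13.3% against 6.5% of all. No match of one motif overlapped a match of another.

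Changes were tested with limma on log2(FPKM + 1), a scale that understates the change of low genes, and a change was called at a Benjamini-Hochberg adjusted p under 0.05 over 12649 genes. Dox against DMSO asks what Dox did in cells carrying the construct. It called 11 of the 37 genes (29.7%), 2 higher and 9 lower, against a background of 17.9% of all tested genes (10.6% higher and 7.31% lower). The 2 that rose were ANKRD1 and VGLL4, and those that fell were CTGF, F3, NT5E, FRMD6, CYR61, WWTR1, AXL, DLC1 and PTPN14. The median change was −0.05 for the 37 genes and 0.04 for all genes. The 3 libraries of each group did not overlap for 21 of the 37, against 39% of all genes.

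With the inhibitor present in both groups, Dox with inhibitor against inhibitor again called 11 of the 37 (29.7%), against 18.2% of all genes. Here 7 were higher and 4 lower, against 12.2% and 6.06% of all genes. LATS2, AMOT, AJUBA, VGLL4, STK4, STK3 and YAP1 rose, and F3, FRMD6, WWC1 and NUAK2 fell. The 7 to 4 split became 3 to 5 after median-ratio scaling, and leaving out Dox plus inhibitor replicate 3 gave 6 calls. Medians were 0.10 for the 37 genes and 0.08 for all genes, and groups did not overlap for 18 of the 37, against 36.9% of all genes.

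Inhibitor against DMSO asks what the CDK8/19 inhibitor did without induction, and it called 19 of the 37 (51.4%), 6 higher and 13 lower, against 38% of all genes (11.7% higher and 26.3% lower). FRMD6, NUAK2, CTGF, WWC1, F3 and ASAP1 rose. LATS2, NF2, AMOT, AMOTL2, AJUBA, YAP1, TEAD4, VGLL4, AXL, FJX1, ANKRD1, ARHGEF17 and DLC1 fell. The median of all genes was −0.12 in this comparison and moved to −0.01 after median-ratio scaling, which made the split 7 higher and 9 lower. For that reason changes with inhibitor alone are also given relative to the median of all genes. Changes in the other comparisons are given without this reference. The median of all genes was also off 0 there, at 0.08 for Dox under inhibitor and −0.08 for inhibitor in induced cells. For inhibitor against DMSO the groups did not overlap for 20 of the 37, against 43.7% of all genes.

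Dox with inhibitor against Dox, the effect of the inhibitor on induced cells, also called 19 of the 37 (51.4%), against 32.1% of all genes (11.3% higher and 20.8% lower). CTGF, FRMD6, NUAK2, F3, NT5E, RBMS3, WWC1, CRIM1 and MYOF rose, 9 in all. ANKRD1, FJX1, AXL, LATS2, AMOT, TEAD4, VGLL4, YAP1, NF2 and DLC1 fell, 10 in all. After median-ratio scaling 11 were higher and 8 lower. The 37 genes had a median of −0.07 and all genes one of −0.08, and 25 of the 37 had groups that did not overlap, against 52% of all genes. Over all called genes, the share called higher also depended on the scale: it went from 59.2% to 43.4% after median-ratio scaling for Dox, from 66.7% to 35.3% for Dox under inhibitor, from 30.8% to 55% for inhibitor and from 35.3% to 53.9% for inhibitor in induced cells.

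**Figure D1:**
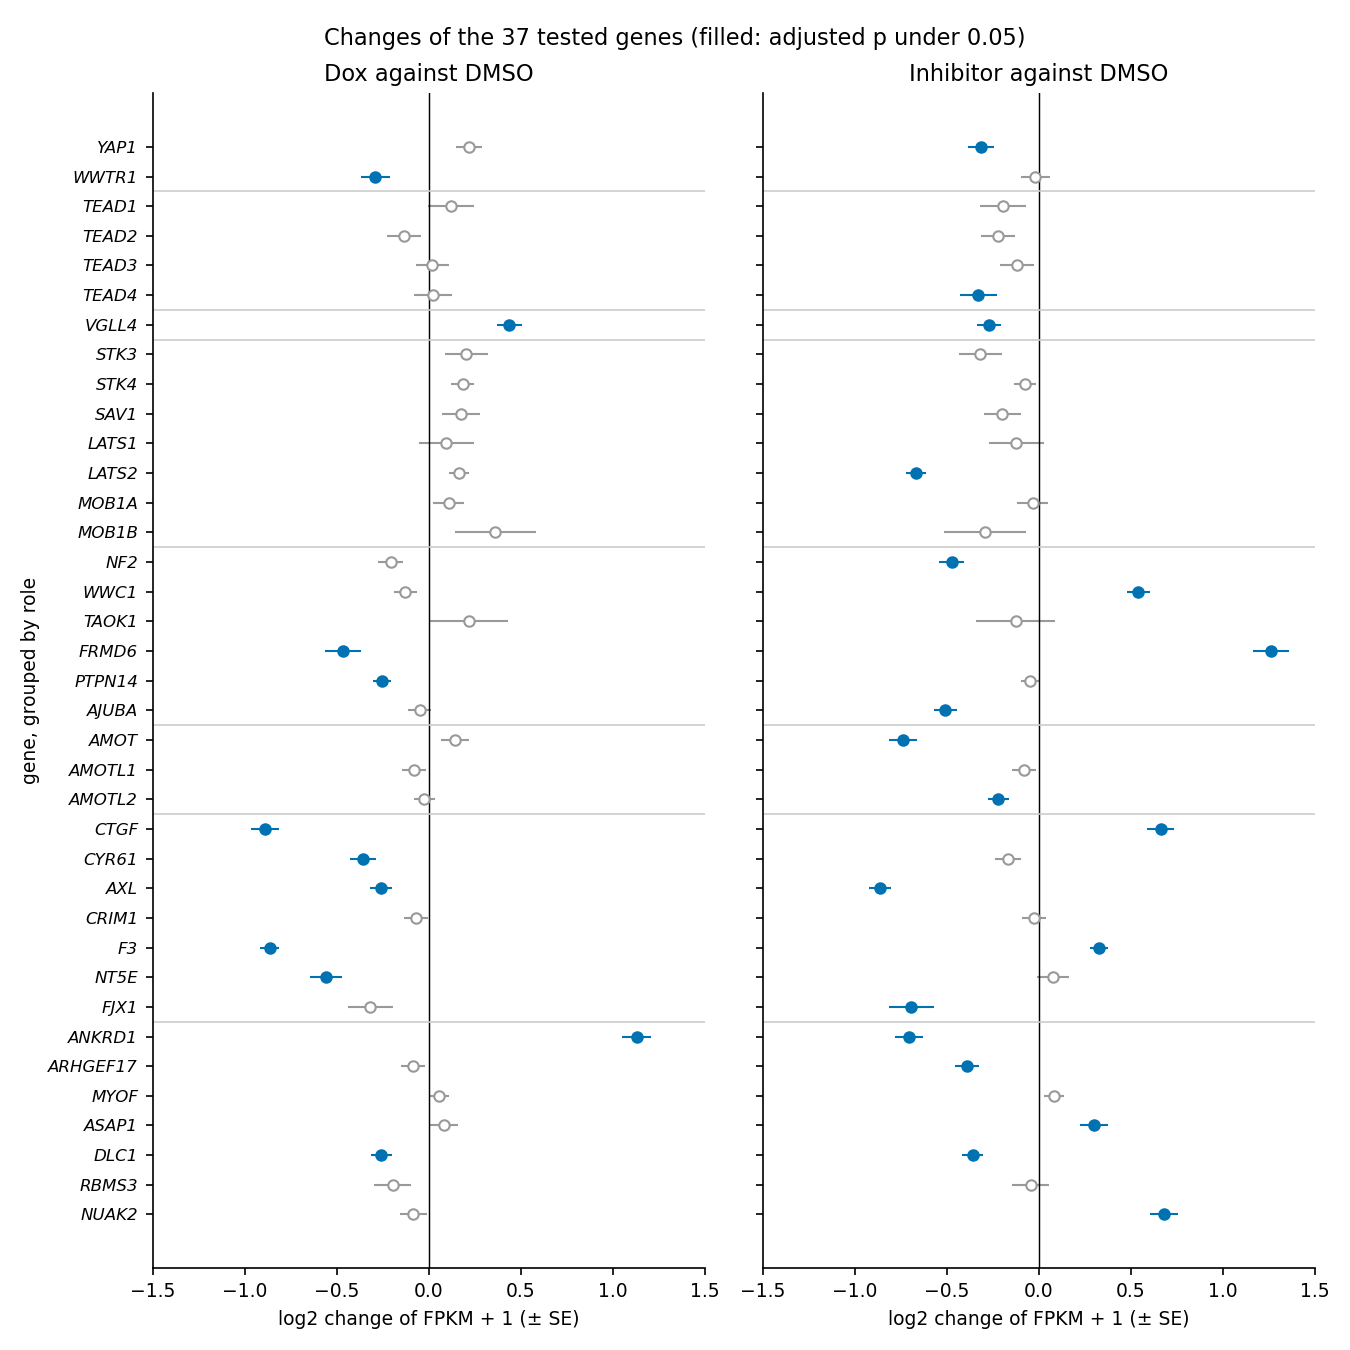
The log2 change of each of the 37 tested genes (rows, by role) in Dox against DMSO (left) and inhibitor against DMSO (right) on the log2(FPKM + 1) scale, with lines for ± SE and filled points for an adjusted p under 0.05. ANKRD1 stands at 1.13 and CTGF at −0.89 with Dox, and at −0.71 and 0.66 with inhibitor.

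YAP1 was at 18.7, 20.3 and 22.3 FPKM in the DMSO libraries, 24.0, 23.3 and 24.4 with Dox, 15.6, 16.0 and 17.0 with inhibitor and 17.8, 19.7 and 20.4 with both. Each library with Dox alone lay above every other library, and each with inhibitor alone lay below every other. YAP1 fell by 0.31 ± 0.071 (SE) on the log2 scale with inhibitor against DMSO (limma adjusted p = 0.00506), 0.20 below the median of all genes, and by 0.30 ± 0.071 with inhibitor in induced cells (adjusted p = 0.00821). Its rise with Dox under inhibitor was 0.24 ± 0.071 (adjusted p = 0.0413), and without inhibitor the value was 0.22 (adjusted p = 0.0547), which missed the threshold. That change was called in 6 of 24 other settings, and its adjusted p ranged from 0.0053 to 0.18. These 6 include the replicate block (adjusted p = 0.0106), although replicate numbers did not pair the samples in Dox against DMSO. After median-ratio scaling the rise with Dox under inhibitor was 0.15 (adjusted p = 0.16) and the fall with inhibitor alone 0.20 (adjusted p = 0.052). The rise under inhibitor also lost its call without any one of 8 libraries, with adjusted p of 0.059 to 0.14.

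WWTR1, the gene of the paralogous effector TAZ, was the more abundant of the pair per length, at 83.0 ± 5.6 FPKM with DMSO (SD, n = 3) against 20.4 ± 1.8 for YAP1. Its libraries read 77.2, 83.4 and 88.3 FPKM with DMSO, 67.8, 66.0 and 69.2 with Dox, 73.6, 85.9 and 86.6 with inhibitor and 68.3, 77.0 and 78.1 with both. Only the Dox group stood below the DMSO group without overlap, a fall by 0.29 ± 0.077 (adjusted p = 0.0241). WWTR1 and YAP1 thus had changes of opposite sign with Dox, of which that of YAP1 was not called. The WWTR1 call was lost without DMSO replicate 2 or 3 or without any 1 Dox library, where the change was −0.31 to −0.24 and the adjusted p 0.06 to 0.084.

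The 4 TEAD genes, which encode the DNA-binding partners of YAP and TAZ, lay between 11.4 and 27.5 FPKM in the 12 libraries. TEAD1 read 16.5, 20.4 and 21.3 FPKM with DMSO, 20.9, 20.9 and 21.5 with Dox, 13.5, 18.0 and 19.3 with inhibitor and 18.9, 22.6 and 21.8 with both. TEAD2 read 27.5, 25.3 and 23.1 FPKM with DMSO, 22.7, 23.4 and 22.7 with Dox, 23.0, 19.5 and 22.2 with inhibitor and 23.0, 18.2 and 21.9 with both. Neither was called in any comparison, although replicates spread widely in TEAD1 outside the Dox group. In Dox with inhibitor against inhibitor, where the replicate numbers paired the samples, TEAD1 was called once the number was fitted as a block (0.31 ± 0.078, adjusted p = 0.0144).

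TEAD3 read 15.7, 14.0 and 12.2 FPKM with DMSO, 14.0, 14.4 and 14.0 with Dox, 12.2, 13.3 and 12.7 with inhibitor and 14.1, 13.7 and 11.5 with both, with groups overlapping in all 4 pairwise comparisons and no call. TEAD4 read 19.6, 16.8 and 14.8 FPKM with DMSO, 18.1, 17.1 and 16.7 with Dox, 14.8, 12.9 and 12.3 with inhibitor and 13.7, 12.5 and 11.4 with both. Its libraries with inhibitor sat below those without, apart from 1 inhibitor library at 14.84 against a DMSO library at 14.80. TEAD4 fell by 0.44 ± 0.10 with inhibitor in induced cells (adjusted p = 0.00703) and by 0.33 ± 0.10 in uninduced cells (adjusted p = 0.0255), the latter 0.21 below the median of all genes. That second fall was 0.21 after median-ratio scaling (adjusted p = 0.14) and lost its call without DMSO replicate 1 or 2 or inhibitor replicate 2 or 3 (adjusted p 0.061 to 0.083). None of the 4 TEAD genes was called for Dox against DMSO by limma, nor had any an unadjusted p under 0.05.

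VGLL4, which competes with YAP for TEAD and so acts as a brake, was called in all 4 pairwise comparisons. It averaged 9.51 ± 0.10 FPKM with DMSO, 13.3 ± 0.47 with Dox, 7.74 ± 0.71 with inhibitor and 9.54 ± 0.39 with both (SD, n = 3). The Dox group was the highest, the inhibitor group the lowest, and cells given both overlapped the DMSO group. VGLL4 rose by 0.44 ± 0.066 with Dox (adjusted p = 0.000852) and by 0.27 ± 0.066 with Dox under inhibitor (adjusted p = 0.0169). It fell by 0.27 ± 0.066 with inhibitor (adjusted p = 0.00759), 0.15 below the median of all genes, and by 0.44 ± 0.066 with inhibitor in induced cells (adjusted p = 0.000473). The 2 smaller changes lost their calls after median-ratio scaling, at 0.20 and −0.16, and the former also without Dox plus inhibitor replicate 3.

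**Figure D2:**
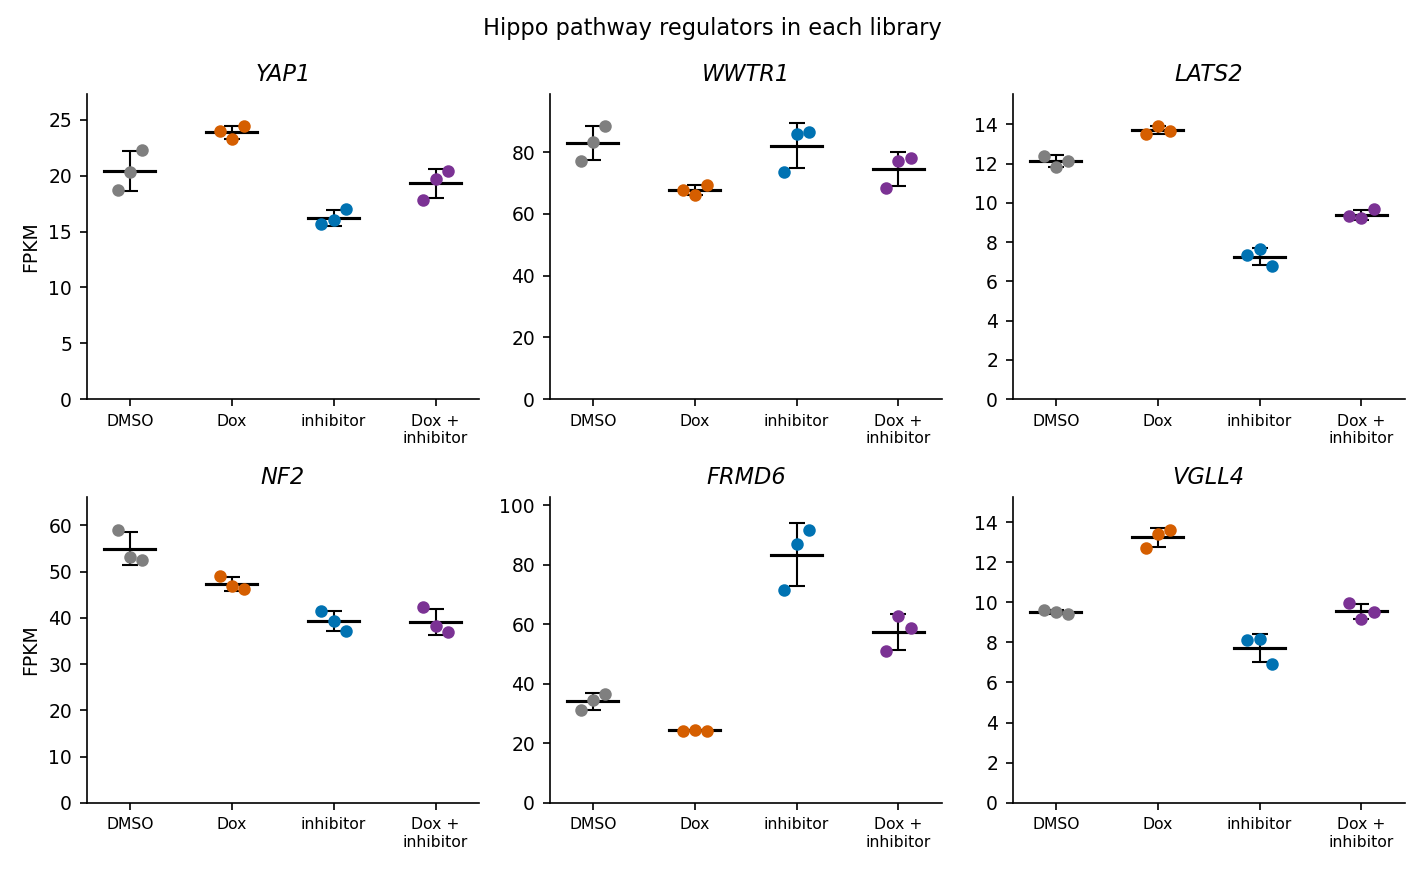
FPKM (linear axis from 0) of 2 effectors and 4 regulators in the 12 libraries by group, with points for libraries and a bar with whiskers for the mean ± SD (n = 3). LATS2 and NF2 are lower and FRMD6 is higher in both groups given inhibitor, and YAP1 and VGLL4 are highest with Dox alone.

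In the core kinase cassette no gene of 7 was called for Dox against DMSO by limma, beside 17.9% of all genes, while 2 had an unadjusted p under 0.05. All 7 changes were positive in that comparison, with a median of 0.18 beside 0.04 for all genes. LATS2 encodes the kinase that phosphorylates YAP and TAZ. Its libraries read 12.4, 11.8 and 12.1 FPKM with DMSO, 13.5, 13.9 and 13.7 with Dox, 7.35, 7.67 and 6.78 with inhibitor and 9.31, 9.21 and 9.68 with both. No 2 groups overlapped. LATS2 fell by 0.67 ± 0.055 with inhibitor (adjusted p = 4.5e-06), 0.55 below the median of all genes, and by 0.50 ± 0.055 with inhibitor in induced cells (adjusted p = 4.62e-05). It rose by 0.33 ± 0.055 with Dox under inhibitor (adjusted p = 0.00245). Without inhibitor its change with Dox was 0.16 ± 0.055 (adjusted p = 0.0626), and the interaction was 0.17 ± 0.077 (adjusted p = 0.356). Its paralog LATS1 averaged 8.05, 8.57, 7.33 and 8.11 FPKM in the DMSO, Dox, inhibitor and combined groups and was called in no comparison.

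STK4 and STK3 encode the MST kinases at the head of the cassette. With Dox under inhibitor STK4 rose by 0.26 ± 0.061 (adjusted p = 0.0141), from 17.5 ± 1.42 to 21.2 ± 0.44 FPKM (SD, n = 3). STK3 rose by 0.37 ± 0.12 (adjusted p = 0.0496), from 7.83 ± 1.50 to 10.3 ± 0.98 FPKM. Both calls were lost after median-ratio scaling (0.18 and 0.29) and without Dox plus inhibitor replicate 3, and that of STK3 was also lost without any one of 7 other libraries. Without inhibitor the uncalled changes with Dox were 0.185 for STK4 (limma adjusted p = 0.0572) and 0.204 for STK3 (adjusted p = 0.257). Their interactions were 0.077 and 0.164 (adjusted p = 0.799 and 0.771). SAV1, the scaffold of the MST kinases, averaged 6.39 to 8.51 FPKM over the 4 groups, and the LATS cofactors MOB1A and MOB1B averaged 66.0 to 72.8 and 6.18 to 10.0. None of the 3 was called, and how reads were shared between the 2 near-identical MOB1 genes is uncertain. With the replicate block, MOB1B was called for Dox with inhibitor against inhibitor (0.43 ± 0.12, adjusted p = 0.0217).

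Among the upstream regulators FRMD6, which encodes the FERM-domain protein Willin, had the largest called changes of the 6. Its libraries read 31.1, 34.6 and 36.4 FPKM with DMSO, 24.3, 24.5 and 24.2 with Dox, 71.4, 86.9 and 91.7 with inhibitor and 50.9, 62.8 and 58.7 with both. No 2 groups overlapped. FRMD6 rose by 1.26 ± 0.10 with inhibitor (adjusted p = 3.45e-06), 1.38 above the median of all genes, a 2.45-fold higher mean FPKM, and by 1.20 ± 0.10 in induced cells (adjusted p = 5.54e-06). It fell by 0.47 ± 0.10 with Dox (adjusted p = 0.00768) and by 0.53 ± 0.10 with Dox under inhibitor (adjusted p = 0.00548), and the interaction was −0.06 (adjusted p = 0.923).

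WWC1 encodes KIBRA, a scaffold that works with NF2. It read 26.4, 24.0 and 22.1 FPKM with DMSO, 21.8, 22.4 and 21.7 with Dox, 36.8, 34.7 and 35.0 with inhibitor and 27.2, 25.8 and 25.2 with both. The inhibitor group stood above all others. WWC1 rose by 0.54 ± 0.063 with inhibitor (adjusted p = 6.68e-05), 0.66 above the median of all genes, and by 0.24 ± 0.063 in induced cells (adjusted p = 0.0144), and it fell by 0.43 ± 0.063 with Dox under inhibitor (adjusted p = 0.00129). NF2 (merlin), an activator of the cassette, moved the other way with inhibitor: from 54.9 ± 3.6 to 39.3 ± 2.2 FPKM, −0.47 ± 0.068 on the log2 scale (adjusted p = 0.000292), 0.36 below the median of all genes. In induced cells NF2 went from 47.4 ± 1.5 to 39.2 ± 2.8 FPKM, −0.27 ± 0.068 (adjusted p = 0.0107), which was −0.19 after median-ratio scaling (adjusted p = 0.066). With Dox against DMSO, NF2 changed by −0.21 ± 0.068 and missed the threshold (adjusted p = 0.0574). That change was called in 9 of 24 other settings, among them median-ratio scaling and quantile normalization. The replicate block also called it, although replicate numbers did not pair the samples in Dox against DMSO.

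AJUBA encodes a LIM protein that binds LATS kinases and limits them. Its libraries read 55.6, 51.1 and 50.2 FPKM with DMSO, 49.6, 52.4 and 49.5 with Dox, 39.4, 36.1 and 34.1 with inhibitor and 45.2, 45.5 and 44.4 with both. The inhibitor group was below all others, and AJUBA fell by 0.51 ± 0.061 with inhibitor (adjusted p = 7.8e-05), 0.39 below the median of all genes, and rose by 0.30 ± 0.061 with Dox under inhibitor (adjusted p = 0.00769). PTPN14, a phosphatase that retains YAP in the cytoplasm, fell by 0.25 ± 0.047 with Dox, from 36.2 ± 0.26 to 30.2 ± 1.3 FPKM (adjusted p = 0.00352), and was called in no other comparison. TAOK1, a kinase upstream of MST, ranged from 11.2 to 24.1 FPKM over the 12 libraries with no call, except with the replicate block for Dox with inhibitor against inhibitor (0.38 ± 0.13, adjusted p = 0.0398).

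The angiomotins bind YAP and hold it at junctions and on actin. AMOT, the lowest of the 3 per length, read 2.99, 3.37 and 2.97 FPKM with DMSO, 3.19, 3.66 and 3.79 with Dox, 1.38, 1.46 and 1.55 with inhibitor and 2.15, 2.37 and 2.24 with both. Libraries with inhibitor were below all without it, and those with inhibitor alone were lowest. AMOT fell by 0.74 ± 0.076 with inhibitor (adjusted p = 2.52e-05), 0.62 below the median of all genes, and by 0.48 ± 0.076 in induced cells (adjusted p = 0.000627), and rose by 0.40 ± 0.076 with Dox under inhibitor (adjusted p = 0.00526). AMOTL2 fell by 0.22 ± 0.056 with inhibitor, from 79.6 ± 5.1 to 68.2 ± 1.7 FPKM (adjusted p = 0.0105), which was −0.10 after median-ratio scaling (adjusted p = 0.22). AMOTL1 ranged from 4.84 to 5.84 FPKM and was not called.

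Of the 7 targets that encode secreted or surface proteins, 5 fell with Dox against DMSO and none rose, beside 7.31% of all genes called lower and 10.6% higher. Under inhibitor 1 fell with Dox, beside 6.06% of all genes, and 1 of 7 is near that share. With inhibitor alone 2 rose and 2 fell (all genes 11.7% and 26.3%), and with inhibitor in induced cells 4 rose and 2 fell (all genes 11.3% and 20.8%). CTGF encodes a matricellular protein and is among the most used readouts of YAP activity. It read 173, 159 and 157 FPKM with DMSO, 91.0, 82.9 and 88.6 with Dox, 291, 250.4 and 236 with inhibitor and 241, 244 and 244 with both. The Dox group was the lowest, and every library with inhibitor lay above every library without it.

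CTGF fell by 0.89 ± 0.074 with Dox (adjusted p = 1.26e-05), and with Dox under inhibitor the change was −0.09 ± 0.074 (adjusted p = 0.415). It rose by 0.66 ± 0.074 with inhibitor (adjusted p = 4.75e-05), 0.78 above the median of all genes, and by 1.46 ± 0.074 with inhibitor in induced cells (adjusted p = 1.19e-07), a 2.78-fold higher mean FPKM. CYR61, the matricellular paralog of CTGF, had the highest FPKM of the 38 genes and a different pattern. Its libraries read 837, 776 and 743 FPKM with DMSO, 607, 619 and 614 with Dox, 777, 686 and 639 with inhibitor and 666, 633 and 611 with both. It fell by 0.36 ± 0.072 with Dox (adjusted p = 0.00575). No other comparison called it: the log2 change was −0.13 with Dox under inhibitor (adjusted p = 0.202), −0.17 with inhibitor (adjusted p = 0.0896) and 0.05 with inhibitor in induced cells (adjusted p = 0.622). The change of CYR61 with inhibitor was called in 6 of 24 other settings. It ranged from −0.245 to −0.047 over these 24, with adjusted p from 0.00052 to 0.67.

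F3 encodes tissue factor, the initiator of coagulation. It read 183, 187 and 196 FPKM with DMSO, 108, 103 and 98.4 with Dox, 240.4, 234 and 237 with inhibitor and 138, 137 and 146 with both. No 2 groups overlapped, and each library with Dox lay below each without it. F3 fell by 0.86 ± 0.050 with Dox (adjusted p = 1.11e-06) and by 0.76 ± 0.050 with Dox under inhibitor (adjusted p = 8.51e-06), with an interaction of 0.11 ± 0.071 (adjusted p = 0.577). It rose by 0.33 ± 0.050 with inhibitor (adjusted p = 0.000423), 0.45 above the median of all genes, and by 0.44 ± 0.050 in induced cells (adjusted p = 6.36e-05).

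AXL encodes a receptor tyrosine kinase. It read 191, 175 and 164 FPKM with DMSO, 149, 153 and 140.2 with Dox, 102, 94.3 and 93.6 with inhibitor and 98.0, 93.3 and 96.8 with both. Both inhibitor groups were far below both groups without it and overlapped each other. AXL fell by 0.86 ± 0.062 with inhibitor (adjusted p = 1.88e-06), 0.75 below the median of all genes, by 0.61 ± 0.062 in induced cells (adjusted p = 2.67e-05) and by 0.26 ± 0.062 with Dox (adjusted p = 0.0146). The last was −0.23 without Dox replicate 3 (adjusted p = 0.07).

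NT5E, the gene of the ecto-nucleotidase CD73, was low at 3.13, 3.36 and 3.81 FPKM with DMSO, 2.17, 1.75 and 2.11 with Dox, 3.91, 3.81 and 3.30 with inhibitor and 3.21, 2.90 and 2.96 with both. The Dox group was below all others: NT5E fell by 0.56 ± 0.087 with Dox (adjusted p = 0.00113) and rose by 0.42 ± 0.087 with inhibitor in induced cells (adjusted p = 0.00367). FJX1, which encodes a secreted relative of the fly Four-jointed protein, read 10.5, 11.02 and 8.25 FPKM with DMSO, 7.69, 6.92 and 8.60 with Dox, 6.61, 5.97 and 4.72 with inhibitor and 4.28, 4.36 and 4.67 with both. It was lower in all libraries with inhibitor than in all without, and fell by 0.69 ± 0.12 with inhibitor (adjusted p = 0.00116), 0.58 below the median of all genes, and by 0.68 ± 0.12 in induced cells (adjusted p = 0.00154). CRIM1, a transmembrane protein that binds growth factors, averaged 131 to 153 FPKM and rose by 0.22 ± 0.065 with inhibitor in induced cells (adjusted p = 0.0222). That call was lost without any 1 Dox library or without Dox plus inhibitor replicate 2 or 3 (adjusted p 0.056 to 0.091), while with the replicate block CRIM1 was also called for Dox with inhibitor against inhibitor (0.18 ± 0.047, adjusted p = 0.0167).

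**Figure D3:**
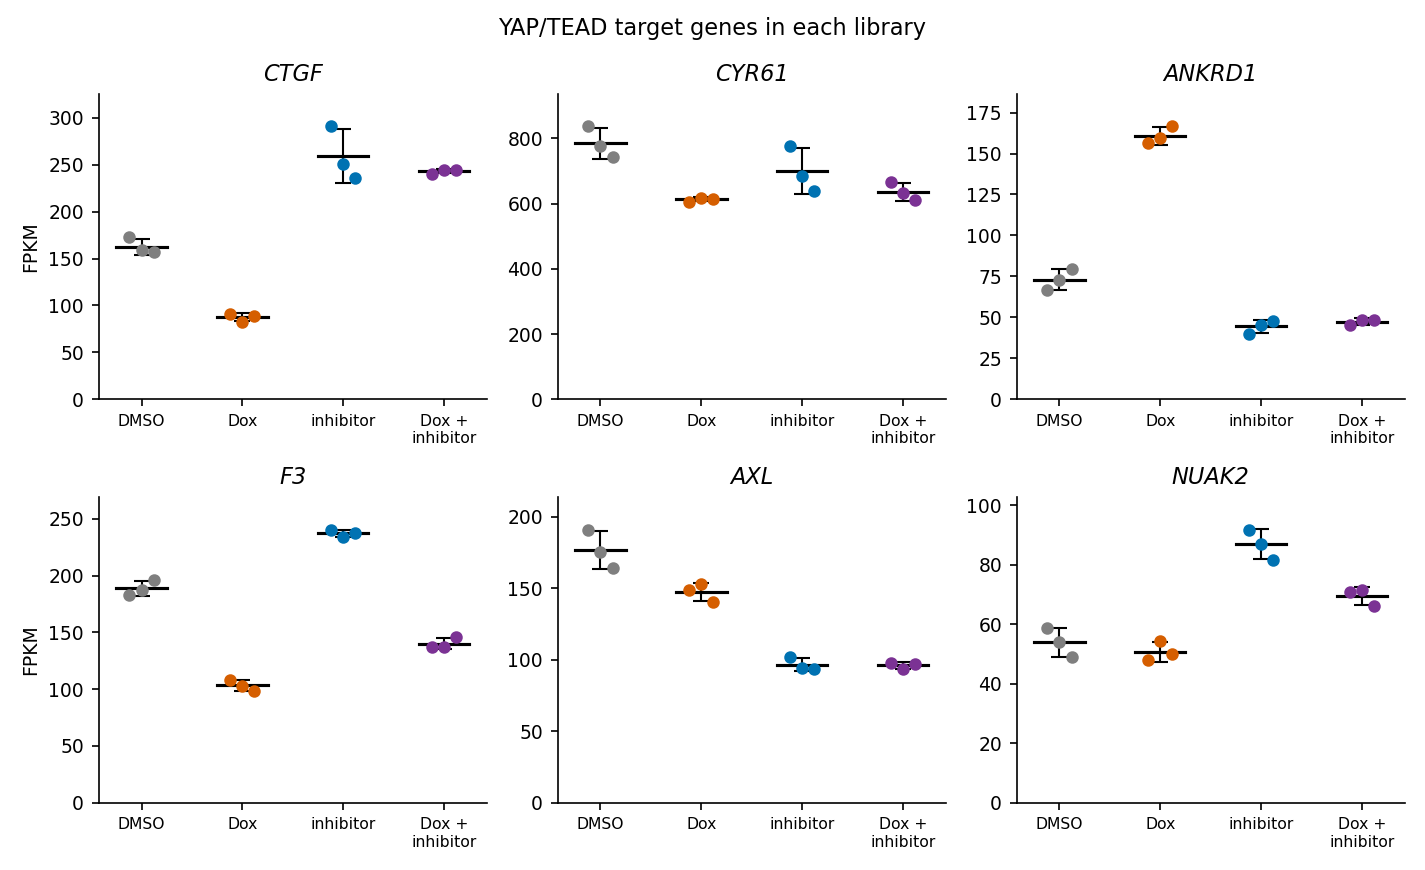
FPKM (linear axis from 0) of 6 YAP/TEAD targets in the 12 libraries by group, with points for libraries and a bar with whiskers for the mean ± SD (n = 3). CTGF is lowest and ANKRD1 highest with Dox alone, F3 is lower with Dox whether or not inhibitor is present, and AXL is lower and NUAK2 higher in both inhibitor groups.

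Of the 7 targets that encode intracellular proteins, Dox raised 1 and lowered 1, near the 10.6% and 7.31% of all genes. ANKRD1 encodes an ankyrin-repeat protein that acts in the nucleus and the muscle sarcomere and is another standard YAP readout. It read 66.7, 73.1 and 79.4 FPKM with DMSO, 156, 159 and 167 with Dox, 40.0, 45.3 and 48.0 with inhibitor and 45.1, 48.7 and 48.6 with both. The Dox group was higher than all others, and the 2 inhibitor groups overlapped at the lowest level. ANKRD1 rose by 1.13 ± 0.077 with Dox (adjusted p = 3e-06), a 2.2-fold higher mean FPKM, and had a change of 0.10 ± 0.077 with Dox under inhibitor (adjusted p = 0.386). With inhibitor it fell by 0.71 ± 0.077 in uninduced cells (adjusted p = 4.1e-05), 0.59 below the median of all genes, and by 1.74 ± 0.077 in induced cells (adjusted p = 5.32e-08).

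NUAK2 encodes a kinase of the AMPK family. It read 58.6, 53.9 and 49.0 FPKM with DMSO, 48.0, 54.3 and 49.8 with Dox, 91.7, 87.0 and 81.7 with inhibitor and 70.9, 71.5 and 66.2 with both. Both inhibitor groups stood above both others, which overlapped. NUAK2 rose by 0.68 ± 0.074 with inhibitor (adjusted p = 3.96e-05), 0.80 above the median of all genes, and by 0.45 ± 0.074 in induced cells (adjusted p = 0.000878). It fell by 0.32 ± 0.074 with Dox under inhibitor (adjusted p = 0.0154), which was −0.28 without Dox plus inhibitor replicate 3 (adjusted p = 0.067).

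DLC1, a GTPase-activating protein, averaged 14.6 ± 0.26 FPKM with DMSO, 12.02 ± 0.61 with Dox, 11.1 ± 0.60 with inhibitor and 10.4 ± 0.43 with both. It fell by 0.26 ± 0.058 with Dox (adjusted p = 0.0105), by 0.36 ± 0.058 with inhibitor (adjusted p = 0.000659, 0.24 below the median of all genes) and by 0.19 ± 0.058 with inhibitor in induced cells (adjusted p = 0.0293). Without Dox replicate 2 the first had an adjusted p of 0.052, and the third was −0.11 after median-ratio scaling (adjusted p = 0.2). The third was also lost without Dox replicate 1 or 3, without Dox plus inhibitor replicate 1 or 2 and without replicate 1 of every group. ARHGEF17, a guanine nucleotide exchange factor, fell with inhibitor from 8.52 ± 0.71 to 6.25 ± 0.057 FPKM (−0.39 ± 0.065, adjusted p = 0.00075, 0.27 below the median of all genes).

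ASAP1, an Arf GTPase-activating protein, rose by 0.30 ± 0.076 with inhibitor, from 37.4 ± 2.3 to 46.4 ± 4.5 FPKM (adjusted p = 0.00919), 0.42 above the median of all genes. RBMS3, an RNA-binding protein gene, rose with inhibitor in induced cells from 2.23 ± 0.31 to 3.15 ± 0.16 FPKM (0.37 ± 0.099, adjusted p = 0.0155), a call lost without Dox replicate 1 or 3 or Dox plus inhibitor replicate 2 (adjusted p 0.055 to 0.067). MYOF, which encodes the membrane repair protein myoferlin, had its only call in the same comparison, from 123 ± 1.1 to 138 ± 0.88 FPKM (0.16 ± 0.056, adjusted p = 0.0443), lost without any one of 8 libraries. With the replicate block MYOF was called for Dox with inhibitor against inhibitor as well (0.14 ± 0.047, adjusted p = 0.0437).

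Whether the response to Dox differed with inhibitor was tested as the interaction, which called 2 of the 37 (5.41%), 1 positive and 1 negative, against 2.82% of all genes (0.909% positive and 1.91% negative). CTGF had an interaction of 0.80 ± 0.11 on the log2 scale (adjusted p = 0.00205): the change with Dox was −0.89 without inhibitor and −0.09 with it. ANKRD1 had an interaction of −1.03 ± 0.11 (adjusted p = 0.000537): the change with Dox was 1.13 without inhibitor and 0.10 with it. These 2 targets therefore had Dox changes of opposite sign without inhibitor, and neither was called for Dox under inhibitor. Both interactions kept their call and sign in all 23 other settings tried. Because TFE3 itself rose less under inhibitor, a smaller fusion level and an effect downstream of it cannot be told apart here.

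The other 35 genes had no called interaction. The unadjusted p was under 0.05 for 12 of the 37, beside 14.1% of all genes, and 4 of the 37 were called without DMSO replicate 1, beside 3.33% of all genes. F3, FRMD6 and VGLL4, the 3 genes called in all 4 pairwise comparisons, had interactions of 0.11, −0.06 and −0.17 (adjusted p = 0.577, 0.923 and 0.49).

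**Figure D4:**
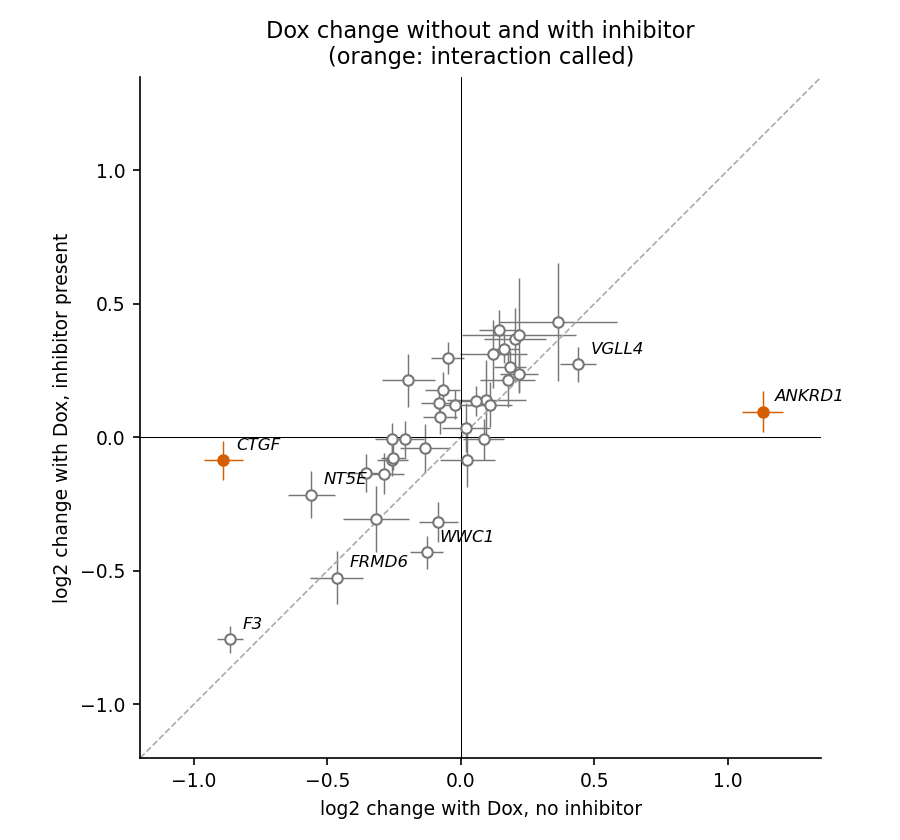
The log2 change with Dox under inhibitor (vertical axis) against that without inhibitor (horizontal axis) for the 37 tested genes, both on the log2(FPKM + 1) scale, with ± SE, a dashed line of equal change and the genes with a called interaction filled. CTGF (−0.89, −0.09) and ANKRD1 (1.13, 0.10) lie far from the line, while F3 (−0.86, −0.76) lies near it.

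Across the 4 pairwise comparisons, 9 of the 37 genes were called in none (AMOTL1, LATS1, MOB1A, MOB1B, SAV1, TAOK1, TEAD1, TEAD2 and TEAD3), 11 in 1, 5 in 2, 9 in 3 and 3 in all 4. These are 24.3%, 29.7%, 13.5%, 24.3% and 8.11% of the 37, beside 47%, 17.9%, 22%, 8.07% and 5.04% of all tested genes. The comparisons share libraries (both against DMSO share the DMSO group, and both with Dox plus inhibitor share that group), so their calls are not independent of each other. The 3 genes called in all 4 had these log2 changes with Dox, with Dox under inhibitor, with inhibitor and with inhibitor in induced cells, in that order: F3 −0.86, −0.76, 0.33 and 0.44. For FRMD6 they were −0.47, −0.53, 1.26 and 1.20. VGLL4 had 0.44, 0.27, −0.27 and −0.44.

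Beyond the 38 genes, 21 further genes known as YAP/TEAD targets were followed, of which 20 were tested. These too were chosen with earlier results of these data known, so their shares called are not those of a blind choice. Dox called 13 of the 20, 2 higher and 11 lower, which is 65% against 17.9% of all genes (10.6% higher and 7.31% lower), with a median of −0.42. The lowest were EDN1, which encodes endothelin-1 (6.34 ± 0.50 to 2.38 ± 0.15 FPKM, −1.12), THBS1, which encodes thrombospondin-1 (464 ± 9.9 to 219 ± 7.3 FPKM, −1.08), and the actin-binding TAGLN (172.5 ± 25 to 85.2 ± 5.1 FPKM, −1). Dox under inhibitor called 13 as well (65% against 18.2%), 3 higher and 10 lower with a median of −0.17, led by AREG at −1.23, DAB2 at 0.82 and INHBA at −0.76.

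Inhibitor alone called 16 of the 20 (80% against 38% of all genes), 11 higher and 5 lower, with a median of 0.245 against −0.12 for all genes. IGFBP3 (2.37), EDN1 (2.13) and TAGLN (1.73) had the largest called changes among the 20. In induced cells 18 were called (90% against 32.1%), 12 higher and 6 lower or 12 and 3 after median-ratio scaling, with a median of 0.40, led by EDN1 at 2.82, TAGLN at 2.24 and IGFBP3 at 2.10. The interaction called 5 (25% against 2.82%), all positive like that of CTGF, with THBS1 at 0.87, EDN1 at 0.69 and the caveolin gene CAV1 at 0.51. It called 2 without Dox replicate 1 or 2 or Dox plus inhibitor replicate 2 or 3, and 3 without DMSO replicate 2, inhibitor replicate 2 or Dox plus inhibitor replicate 1. CAV1 lost its call without DMSO replicate 2, Dox replicate 1 or 2 or Dox plus inhibitor replicate 2 or 3.

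A second list held other components of the pathway, 46 in the table and 39 tested. Dox called 7 of them (17.9%, the same as the 17.9% of all genes), 4 higher and 3 lower, a split that became 2 and 7 under either rescaling (median-ratio or quantile). The largest called changes were STK26 at 0.63, the tankyrase TNKS2 at 0.46 and the kinase NUAK1 at −0.41. STK26 lost its call without DMSO replicate 1 or 2 or any 1 Dox library, and TNKS2 without DMSO replicate 1 or Dox replicate 3. The count was 2 without DMSO replicate 1 or Dox replicate 3, and 3 without DMSO replicate 2 or Dox replicate 1 or 2. Dox under inhibitor called 8 (20.5% against 18.2%), 5 higher and 3 lower or 3 and 3 after median-ratio scaling, led by the polarity gene MPP5 at 0.67, the atypical cadherin FAT4 at 0.57 and STRN at 0.49. MPP5 and STRN lost their calls without inhibitor replicate 1 or Dox plus inhibitor replicate 2 or 3, and STRN also without inhibitor replicate 2, DMSO replicate 2 or any 1 Dox library. The count was 4 or 5 without inhibitor replicate 1 or 2 or Dox plus inhibitor replicate 2 or 3, and 14 with the replicate block.

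Inhibitor alone called 8 of the 39 (20.5% against 38% of all genes), 4 in each direction or 6 higher and 3 lower after median-ratio scaling, led by STK38L, the gene of a LATS-related kinase, at 1.03, the phosphatase PTPN21 at 0.75 and FAT4 at −0.72. In induced cells 10 were called (25.6% against 32.1%), 7 higher and 3 lower or 10 and 2 after median-ratio scaling, with STK38L at 0.64, PTPN21 at 0.55 and the cadherin FAT1 at 0.55. STK38L lost this call without Dox replicate 1 or 2 or Dox plus inhibitor replicate 2 or 3 (adjusted p 0.062 to 0.088). The interaction called 0 of the 39 with limma (2.82% of all genes), 3 having an unadjusted p under 0.05.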

How the data were processed

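PolyA RNA of HK-2 cells was sequenced from TruSeq stranded mRNA libraries, per the labels' protocols. The authors deposited 1 table of FPKM values for all 12 libraries. Trim Galore 0.6.7, Salmon 1.9.0 and the builds GRCh38.p13 and hg38 are named in the submitters' processing notes, while annotation and FPKM calculation are not named there or in the labels. Depth is unknown, so no counting intervals are given.

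Genes with FPKM of at least 1 in at least 3 of 12 libraries were tested on log2(FPKM + 1) with limma 3.58.1 (R 4.3.3): 4 group means, intensity trend, 8 residual degrees of freedom, Benjamini-Hochberg adjustment over 12649 genes, threshold 0.05. The p-values reflect the spread between these samples. The procedure was tested on simulated data with independent noise in each library and changes in the Dox group only. That test does not cover correlated replicates or a trend with GC content. The genes and lists were chosen with earlier results of these data known. Values per library are given for YAP1, WWTR1, TEAD1 to TEAD4, CTGF, CYR61, ANKRD1 and each gene with a called log2 change of at least 0.5 in size, and up to 3 genes per list and comparison are named. A gene of the further targets is not reported here and is not counted.

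Replicate numbers come from the labels, which do not say that a number marks a shared day. Deviations of same-numbered libraries correlated over 0.1 in every pair (0.133 to 0.549) only for Dox with inhibitor against inhibitor. Alternatives covered pseudocounts, filters, scaling, the trend, the samples fitted, the replicate block, length and GC content, and each library left out. Leaving out replicate 1 of every group was chosen after seeing the data. Promoters came from RefSeq (GRCh38.p14), with GENCODE v29 marking the transcribed bases.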

Additional observations from a re-analysis of the deposited data

Results flagged for a closer look

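For 2 of the 37 genes the response to Dox differed between cells without and with inhibitor, by the interaction term in limma. CTGF had a difference of 0.803 on the log2 scale (adjusted p = 0.002) and ANKRD1 one of −1.034 (adjusted p = 0.00054).

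The same test singled out 5 of the 20 further YAP/TEAD targets. THBS1 had a difference of 0.871 (adjusted p = 3.3e-05), EDN1 0.689 (adjusted p = 0.0064), CAV1 0.512 (adjusted p = 0.021), DAB2 0.497 (adjusted p = 0.022) and CCDC80 0.38 (adjusted p = 0.033). All 5 are positive, but the Dox changes behind them were not alike: in DAB2, an endocytic adaptor gene, the log2 change with Dox was 0.33 without inhibitor and 0.82 with it, whereas EDN1 fell by 1.118 and by 0.428. The calls of CAV1, DAB2 and CCDC80 were each lost in some of 23 other settings (in 6, 7 and 13). With 1 library left out, CAV1 lost its call without DMSO replicate 2, Dox replicate 1 or 2 or Dox plus inhibitor replicate 2 or 3 (adjusted p 0.056 to 0.074). DAB2 lost it without Dox replicate 1 or 2, inhibitor replicate 2 or any 1 Dox plus inhibitor library (adjusted p 0.052 to 0.076). CCDC80 lost it without any 1 library except DMSO replicate 3 and inhibitor replicate 1 (adjusted p 0.055 to 0.11).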

How the results depend on the processing

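In 24 other settings (23 for the interaction), 44 of the 62 called changes of the 37 genes in the 5 comparisons kept their call and sign throughout, 18 lost the call in at least 1, and 0 reversed sign. For Dox with inhibitor against inhibitor the 11 calls became 7 when only those groups were fitted, 17 with length and GC trends removed and 19 with these removed and the replicate block, and 6 to 12 with 1 library left out (13 without replicate 1 of every group). The 2 interaction calls became 4 with the replicate block, 8 with length and GC trends removed and 10 with both, and 2 to 4 with 1 library or replicate 1 of every group left out. The cause was not tested. Changes correlated with GC content across 11996 genes, with Spearman's rho of −0.563 for Dox with inhibitor against inhibitor and −0.395 for Dox against DMSO. The rho was 0.218 for inhibitor against DMSO, 0.085 for Dox with inhibitor against Dox and −0.212 for the interaction. Genes are not independent replicates.

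Same-numbered libraries did not pair in every pair for Dox against DMSO (correlations −0.072 to 0.198), inhibitor against DMSO (0.097 to 0.686) and Dox with inhibitor against Dox (−0.09 to 0.135). With the replicate block these called 16, 22 and 23 of the 37. For inhibitor against DMSO, where the lowest correlation (0.097) lay just under the cut of 0.1, the block added calls of 3 genes. These were TEAD2 (limma adjusted p = 0.0371), STK3 (adjusted p = 0.00631) and CYR61 (adjusted p = 0.0179). For Dox with inhibitor against inhibitor the block called 16, and it changed no call there other than those of TEAD1, MOB1B, TAOK1, CRIM1 and MYOF.

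Signs that turned belong to uncalled values near 0. CTGF with Dox under inhibitor ranged from −0.151 to 0 with 1 library left out, the latter without inhibitor replicate 1, and was 0.007 without replicate 1 of every group. WWTR1 with inhibitor was 0.102 after median-ratio scaling, 0.04 after quantile normalization, 0.045 with length and GC trends removed (0.045 with the block too) and −0.069 to 0.057 with libraries left out (0.007 without replicate 1 of every group). The interaction of YAP1 was −0.014, −0.013, −0.044 and −0.044 in the same 4 settings and −0.044 to 0.077 with 1 library left out (0 without Dox replicate 2).

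The 5 interaction calls of the further targets became 8 with length and GC trends removed. Among the other pathway components, with all libraries kept, calls for Dox against DMSO ranged from 4 (without the filter, with a mean FPKM of at least 5, or with those groups alone) to 15 (block). They ranged from 3 to 14 for Dox with inhibitor against inhibitor, reached 18 for inhibitor against DMSO and 19 for Dox with inhibitor against Dox (block with length and GC trends removed).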
